A study of Mus musculus with 7 samples.

Results

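The axon guidance ligands and receptors measured here were 70 genes of the 56941 in the deposited matrices. They were picked by gene symbol alone. They comprised 29 semaphorins and plexins, 22 ephrins and Eph receptors, 7 slits and Robo receptors, and 12 netrins and netrin receptors of the Dcc, neogenin and Unc5 kinds. Single-nucleus RNA-seq was performed on frozen lung tumors that 4 male mice carried at endpoint, after Cre was delivered to the airways by an inhaled adenovirus. The 2 RP mice carried Rb1 fl/fl and Trp53 fl/fl alleles, a model of small cell lung cancer (SCLC). The 2 RPC mice carried both of these and were in addition labelled Casp8-/-, that is, lacking the apoptotic protease caspase 8. The methods describe this allele as conditional. The viral promoter that drove Cre was not restricted to one cell type, so recombination was not limited to neuroendocrine cells. The comparison of RPC with RP addressed which genes differed when SCLC formed without caspase 8. Nuclei of all 4 animals were barcoded together and sequenced in 7 libraries, and each animal counted as one replicate.

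Guidance cues steer growing axons and migrating cells. Semaphorins bind plexin receptors, often with neuropilins as co-receptors, and plexins act on small GTPases and the cytoskeleton. Ephrins sit in the membrane and bind Eph receptor tyrosine kinases on a neighboring cell, with signals in both directions. Slits are secreted and act on Robo receptors, mostly as repellents. Netrins attract through Dcc and neogenin and repel through Unc5 receptors. Outside the nervous system the same families shape blood vessels and epithelia, and Ephb4, Efnb2, Robo4 and Plxnd1 are known from endothelium. SCLC is a neuroendocrine tumor whose cells transcribe many neuronal genes.

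After filtering, 38254 nuclei remained, between 8363 and 10853 per animal, and 32045 of them were tumor-like. Clusters were so named when no marker list of another cell class was enriched. The neuroendocrine list did not enter the naming. No cell barcode was shared between animals. The matrices held 32299909 and 35420582 transcripts for the RP animals and 72446861 and 57515082 for the RPC animals, with medians of 2255, 2223, 3392 and 2767 transcripts per nucleus in RP1, RP2, RPC1 and RPC2. The ribosomal RNA gene Rn18s-rs5 took 3.1 to 10% of the transcripts, less in RPC than in RP. Levels are CPM, the count of a gene scaled to a common library total, summed over the tumor-like nuclei of one animal. Casp8 was measured at 57.0 and 60.4 CPM in the RP animals and at 91.7 and 67.0 CPM in the RPC animals, hence not lower in the animals labelled RPC. A count over the whole gene does not resolve the deleted part, so these values check neither the labels nor the deletion, and RP and RPC mean the animals so labelled throughout.

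The first feature of the data was how unevenly the 70 genes were transcribed. Together they gave 912903 of 153058823 transcripts of the tumor-like nuclei, a share of 0.596%. The share was 0.647 and 0.672% in RP1 and RP2, and 0.544 and 0.581% in RPC1 and RPC2. Single genes ranged from 17 to 158531 transcripts. Robo1, a slit receptor, held 17.4% of the total, Efna5, a membrane-anchored ephrin, 14.2%, Ephb2, a receptor for B-type ephrins, 11%, and Ntn4, a netrin of basement membranes, 10.5%. Long genes collect more reads in nuclei, because unspliced RNA is captured along introns. Per kilobase of gene span, the highest mean level was that of Plxnb1 at 7.87 CPM per kb, ahead of Ntn4 at 5.68, Ephb3 at 4.33 and Ephb2 at 3.78 CPM per kb. Per kilobase of exon, Efna5 at 163 and Ntn4 at 157 CPM per kb led, followed by Robo1 at 58.8 and Ephb2 at 56.3 CPM per kb. Ntn4 and Ephb2 were thus among the leading 4 on both scales, whereas the place of Plxnb1 and of Robo1 depended on the scale. Only 3 genes were too sparse for the test between genotypes, namely Efna4 at 0.129 to 0.33 CPM, Ntn5 at 0.109 to 0.304 CPM and Robo4 at 0.0735 to 0.152 CPM.

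Across genotypes most of the guidance genes were lower in RPC than in RP. Of the 67 genes tested, 49 had a negative log2 fold change and 18 a positive one, which is 73.1% negative against 50.8% of the 20088 genes tested. The median log2 fold change was -0.38 for the guidance genes and -0.01 for all genes. With edgeR's quasi-likelihood test none of the 67 passed an adjusted p of 0.05, and the background was 0% of all genes. DESeq2 called 3 of the 66 guidance genes with an adjusted p, all lower in RPC. The background was 630 of 17443 genes, or 3.61%, with 1.71% called lower and 1.9% higher. The total number of guidance genes called was thus near the background. At an unadjusted edgeR p under 0.05 there were 17 guidance genes, 15 lower and 2 higher, where the background was 14.9%, with 7.67% lower and 7.28% higher. Both RPC animals lay below both RP animals for 31 of the 67 genes and above them for 4, with a background of 50.3% without overlap, 25.4% lower and 24.8% higher. The sign of the fold change held for 42 of the 67 genes when each animal was left out in turn, and 34 of these were negative. Shares of negative values were between 66.7 and 73.1% in these fits. Leaving out an animal can hardly turn the sign of a gene without overlap. The count of held signs thus largely restates the count without overlap.

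**Figure D1:**
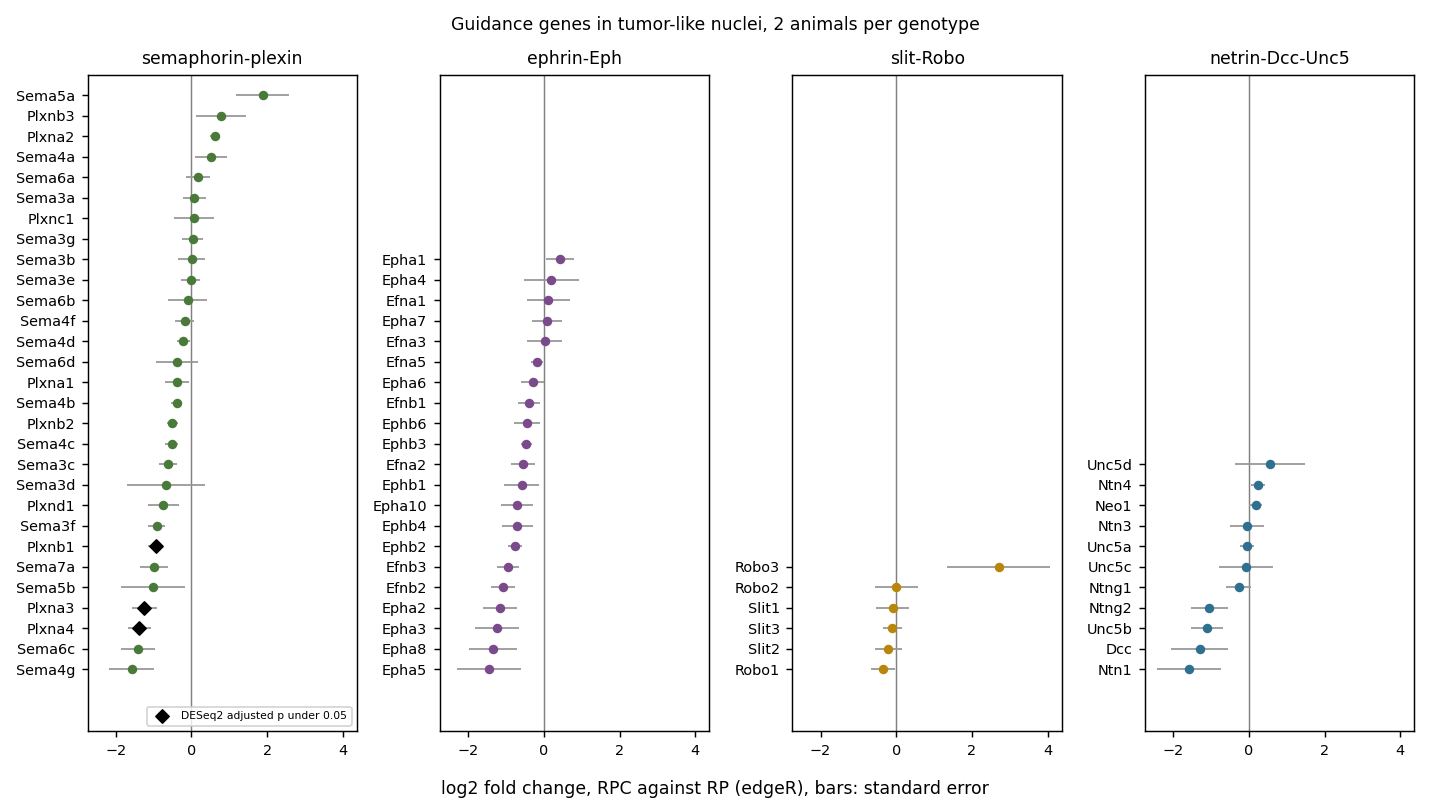
Log2 fold changes of the 67 tested guidance genes, RPC against RP, in tumor-like nuclei (x axis, edgeR), sorted within each of the 4 ligand-receptor systems; bars are standard errors from 2 animals per genotype. Most points of the semaphorin-plexin and ephrin-Eph panels lie left of 0, and the black diamonds mark Plxnb1, Plxna3 and Plxna4, the 3 genes with a DESeq2 adjusted p under 0.05.

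The 3 genes that DESeq2 called were all plexins. The 250 bases upstream of their annotated starts are shown because these receptors differed in the same direction. The sequence is that of GRCm39, read 5′ to 3′ on the gene's strand and ending one base before the start of the Ensembl canonical transcript, and capitals mark the GC box GGGCGG or its complement CCGCCC.
Plxnb1, chr9:108924207-108924456, plus strand: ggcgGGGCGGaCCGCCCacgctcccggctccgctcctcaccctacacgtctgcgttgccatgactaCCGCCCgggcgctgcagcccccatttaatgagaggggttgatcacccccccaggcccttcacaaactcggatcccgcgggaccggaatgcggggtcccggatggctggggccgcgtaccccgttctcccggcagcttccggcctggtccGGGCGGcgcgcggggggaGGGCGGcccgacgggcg
Plxna4, chr6:32565194-32565443, minus strand: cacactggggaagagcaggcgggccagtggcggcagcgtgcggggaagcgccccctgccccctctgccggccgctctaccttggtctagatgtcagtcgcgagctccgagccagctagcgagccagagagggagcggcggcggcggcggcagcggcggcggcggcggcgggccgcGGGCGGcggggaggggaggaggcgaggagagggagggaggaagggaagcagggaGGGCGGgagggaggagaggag
Plxna3, chrX:73372422-73372671, plus strand: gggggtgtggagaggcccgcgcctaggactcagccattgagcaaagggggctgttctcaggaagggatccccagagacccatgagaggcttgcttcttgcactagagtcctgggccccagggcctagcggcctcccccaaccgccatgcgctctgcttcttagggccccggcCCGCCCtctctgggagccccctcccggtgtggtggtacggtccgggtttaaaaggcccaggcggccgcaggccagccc
The windows of Plxnb1, Plxna4 and Plxna3 hold 5, 2 and 1 GC boxes, and 74.0, 76.0 and 68.0% of their bases are G or C. A GC box in either orientation was found in 36.4% of 21593 windows of the same length upstream of protein-coding genes and in 42 of the 70 guidance genes, or 60%. A match of letters describes the sequence and does not show a binding site.

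Plxnb1 (ENSMUSG00000053646, chromosome 9, 108923419 to 108950427), a receptor for Sema4d, was measured at 325 and 234 CPM in the RP animals and at 153 and 138 CPM in the RPC animals. Both RPC animals were below both RP animals. The log2 fold change was -0.94 ± 0.20 (SE), with an adjusted p of 0.271 by edgeR and 0.0491 by DESeq2. The wells that held nuclei of one animal are technical splits of it and add no replicates. They gave 274.8 to 340.2 and 191.2 to 264.8 CPM for the RP animals. For the RPC animals they gave 141.8 to 171.4 and 133.3 to 145.9 CPM, without overlap between genotypes. Plxna4 (ENSMUSG00000029765, chromosome 6, 32121203 to 32565193), which takes part in the response to class 3 and class 6 semaphorins, stood at 41.0 and 41.9 CPM in RP and at 11.5 and 20.3 CPM in RPC. The groups did not overlap, and the log2 fold change was -1.38 ± 0.30, with an adjusted p of 0.271 by edgeR and 0.00884 by DESeq2. Plxna3 (ENSMUSG00000031398, chromosome X, 73372672 to 73388295), a plexin that works with neuropilin in the response to Sema3f, was at 62.6 and 32.5 CPM in RP and at 19.8 and 20.1 CPM in RPC. Its wells did overlap between genotypes, at 18.05 to 43.81 CPM in RP2 against 18.57 to 22.12 CPM in RPC1 and 19.27 to 21.26 CPM in RPC2. The RP animals differed more from each other than the RPC animals did, and the log2 fold change was -1.25 ± 0.33, with an adjusted p of 0.284 by edgeR and 0.0476 by DESeq2. These calls changed with the settings and with single animals. Over 13 DESeq2 settings Plxna4 was called in 9, Plxna3 in 5 and Plxnb1 in 2, and Plxnb1 was no longer called at a finer clustering resolution, with guidance genes kept among the variable genes, or with all kept nuclei. With the replicate number as a block DESeq2 called Plxna4, Ntn1 and Sema5a. Which guidance genes DESeq2 called also changed when one animal was left out, which leaves 1 animal in a group. Without RP1, RP2, RPC1 and RPC2 in turn, the median DESeq2 log2 fold change of the guidance genes was -0.29, -0.31, -0.38 and -0.35. Over all genes it was 0.11, 0.1, -0.02 and -0.05.

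The remaining plexins did not move as one group. Plxna2, the plexin with the most transcripts, was higher in RPC, at 571 and 543 CPM against 357 and 369 CPM in RP, and neither group spread into the other. The log2 fold change was 0.62 ± 0.14, with an adjusted p of 0.275 by edgeR and 0.0671 by DESeq2. Plxnb2, a close relative of Plxnb1, was at 105 and 119 CPM in RP and at 83.7 and 74.9 CPM in RPC, a log2 fold change of -0.50 ± 0.15. Plxna1 gave 74.0 and 71.7 CPM in RP and 73.1 and 38.9 CPM in RPC, so that RPC2 alone stood below the rest. Over the 9 plexins the median log2 fold change was -0.50, with values from -1.38 to 0.78.

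Among the 20 semaphorins the median log2 fold change was -0.30, and 6 had an unadjusted edgeR p under 0.05 in the lower direction and 1 in the higher. The background was 7.67% of genes lower and 7.28% higher. Sema3f, a repellent that acts through neuropilin and plexin A receptors, was at 22.5 and 30.4 CPM in RP and at 14.2 and 13.7 CPM in RPC. Its log2 fold change was -0.92 ± 0.22, with an adjusted p of 0.276 by edgeR and 0.0626 by DESeq2. The gene lies 72.2 kb from Sema3b, which had a log2 fold change of 0.01. Sema5a, a membrane semaphorin with thrombospondin repeats, was the one semaphorin higher in RPC on this criterion, at 92.7 and 29.9 CPM against 9.16 and 24.2 CPM. RPC2 lay just above RP2 and RPC1 far above the other 3 animals, and the log2 fold change of 1.88 ± 0.69 ranged from 0.84 to 2.75 when single animals were left out. Sema6c stood at 6.35 and 4.63 CPM in RP and at 1.34 and 2.76 CPM in RPC. Sema4b and Sema4c, transmembrane semaphorins of class 4, had log2 fold changes of -0.39 ± 0.15 and -0.52 ± 0.17, and Sema3c, a secreted one, had -0.61 ± 0.24. Sema4g and Sema7a had larger and less certain values of -1.58 ± 0.59 and -0.99 ± 0.36, from levels of 0.979 to 10.2 CPM. Sema3e, the ligand of Plxnd1 and the most abundant semaphorin, was at 342 and 462 CPM in RP and at 326 and 467 CPM in RPC. The RPC animals fell on both sides of the RP animals. Sema4d, the ligand of Plxnb1, was at 104 and 110 CPM in RP and at 103 and 81.2 CPM in RPC, a log2 fold change of -0.22 ± 0.17.

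In the ephrin-Eph system 13 of 21 tested genes had both RPC animals below both RP animals and 1 had them above, and the median log2 fold change was -0.55. The background without overlap was 25.4% of all genes lower and 24.8% higher. Ephb2 carried most of the Eph receptor transcripts. It was measured at 822 and 975 CPM in RP and at 473 and 584 CPM in RPC, without overlap. The log2 fold change was -0.77 ± 0.19, with an adjusted p of 0.276 by edgeR and 0.0828 by DESeq2. Ephb3, which binds the same ligands, was at 86.7 and 99.6 CPM in RP and at 69.6 and 65.6 CPM in RPC, with a log2 fold change of -0.46 ± 0.15. Epha2, an Eph receptor of epithelia, was at 3.12 and 5.36 CPM in RP and at 2.43 and 1.39 CPM in RPC. Epha8, which lies 93.4 kb from Ephb2, was at 7.53 and 2.90 CPM in RP and at 1.23 and 2.87 CPM in RPC, where RP2 and RPC2 were nearly equal. The 20 tested genes nearest to Ephb2 on chromosome 4 had a median log2 fold change of -0.38, and those nearest to Plxnb1, Plxna4 and Plxna3 had -0.28, -0.12 and -0.12. Among the 20 guidance genes with the smallest edgeR p, such medians ran from -0.55 near Epha2 to 0.18 near Sema3c. They were -0.36 near Plxnb2 and -0.32 near Ephb3, against -0.01 over all genes. The part of the region in these differences was not tested. Of the 20 genes with the smallest edgeR p, 11 overlap another gene in the files, 7 of these on the opposite strand. At Plxnb1 and Plxna4 the opposite-strand genes had 0 to 22 transcripts per animal.

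Of the 7 ephrins tested, 5 had both RPC animals below both RP animals, beside a background of 25.4% of genes. These were the transmembrane ligands Efnb1, Efnb2 and Efnb3 and the anchored ligands Efna2 and Efna5. Efnb2 was at 12.3 and 19.0 CPM in RP and at 6.36 and 8.59 CPM in RPC, a log2 fold change of -1.07 ± 0.32, with an adjusted p of 0.292 by edgeR and 0.0834 by DESeq2. Efnb3 was at 3.95 and 4.08 CPM in RP and at 2.13 and 2.00 CPM in RPC, a log2 fold change of -0.96 ± 0.29, with an adjusted p of 0.292 by edgeR. Efna5, anchored in the membrane by a lipid and far more abundant, was at 984 and 843 CPM in RP and at 804 and 802 CPM in RPC. The log2 fold change of -0.19 ± 0.16 was small beside its error.

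**Figure D2:**
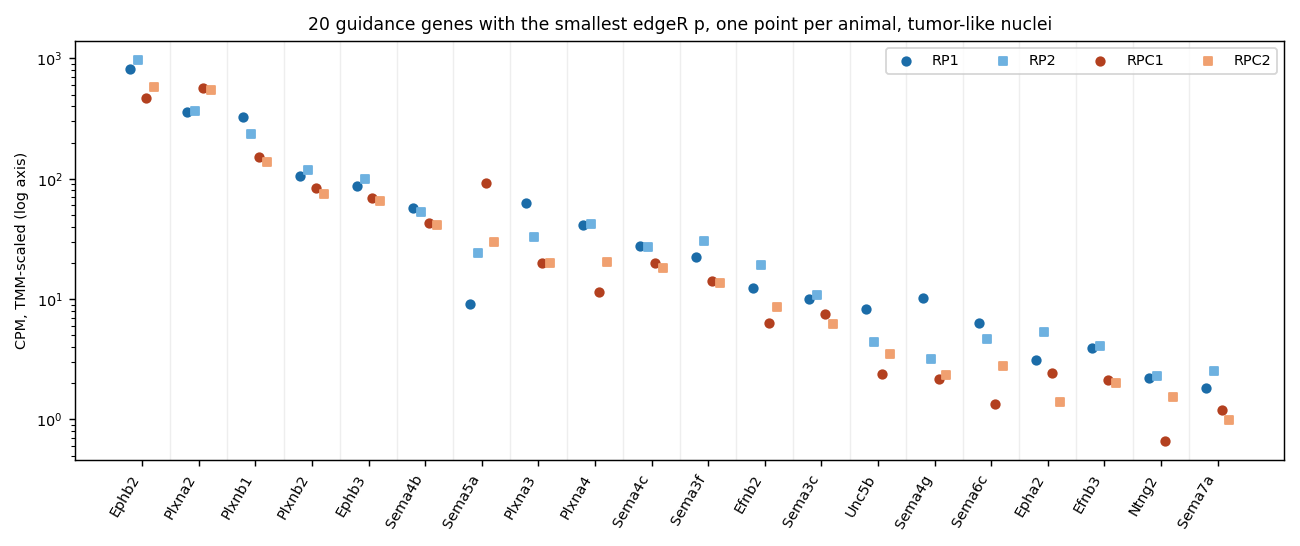
Levels of the 20 guidance genes with the smallest edgeR p in tumor-like nuclei, in CPM scaled by TMM factors (log axis), with blue symbols for RP and red or orange symbols for RPC and one symbol per animal. The RP and RPC symbols of each gene do not overlap, and Plxna2 and Sema5a are the 2 genes with RPC above RP.

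The slit-Robo and netrin genes had median fold changes near 0 between genotypes, and several differed widely between animals of one genotype. Robo1 was at 830 and 1560 CPM in RP and at 924 and 956 CPM in RPC, and Robo2 at 61.9 and 144 CPM in RP and at 57.7 and 148 CPM in RPC, so that both RPC animals lay within the RP range for Robo1 and on both sides of it for Robo2. Slit1, a Robo ligand, was at 124 and 79.5 CPM in RP and at 57.2 and 133 CPM in RPC, where RPC animals fell on both sides of RP. The median log2 fold change was -0.10 over the 6 slit and Robo genes tested. It was -0.08 over the 11 netrin ligands and receptors tested. Ntn4 was at 481 and 624 CPM in RP and at 677 and 641 CPM in RPC, a log2 fold change of 0.25 ± 0.19. Neogenin (Neo1) was at 152 and 121 CPM in the RP animals and at 165 and 144 CPM in the RPC animals, whereas Unc5a was at 89.5, 68.6, 83.4 and 69.2 CPM, with overlap in both cases. Unc5b, a netrin receptor also known from vessels, was the one netrin gene with an unadjusted edgeR p under 0.05, at 8.25 and 4.37 CPM in RP and at 2.37 and 3.46 CPM in RPC, with a log2 fold change of -1.11 ± 0.43 and an adjusted p of 0.327 by edgeR. Ntng2, a membrane-anchored netrin relative, was at 2.20 and 2.28 CPM in RP and at 0.662 and 1.52 CPM in RPC.

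Within a genotype, 6 guidance genes differed over 4-fold between the 2 animals with at least 50 transcripts in the higher one, namely Robo3, Ntn1, Epha5, Sema5b, Sema3d and Unc5d. The background was 2.82% of genes. Robo3, a Robo receptor that modulates slit signals, was at 2.05 and 0.991 CPM in RP and at 18.9 and 0.892 CPM in RPC. It was high in RPC1 alone, and its log2 fold change of 2.70 ± 1.35 turned to -0.76 when RPC1 was left out. Ntn1, the classical netrin, was at 75.3 and 56.9 CPM in RP and at 5.70 and 38.5 CPM in RPC, with RPC1 far below the rest. Dcc, its attractive receptor, was at 980 and 278 CPM in RP and at 125 and 387 CPM in RPC, highest in RP1 and lowest in RPC1. Epha5 was highest in RP2, at 68.2 CPM against 9.65 to 14.9 CPM in the other animals, and Sema5b was highest in RP1, at 29.4 CPM against 4.37 to 9.79 CPM.

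Tumor-like clusters were mostly made of one animal, and for some of these genes one cluster carried the animal's value. In RP1, clusters with at least 200 nuclei ranged from 238 to 1720 CPM for Dcc and from 9.62 to 130 CPM for Ntn1, and the same cluster of 2021 nuclei was highest for both. Robo3 differed from this pattern. It was at 11 to 21.4 CPM in all 3 clusters of RPC1, and at 0 to 6.81 CPM in the clusters of the other animals. Unc5d reached 214 CPM in one RPC1 cluster. It was at 128 CPM, from 93 transcripts, in the 313 RPC2 nuclei of a cluster that mostly held RP2 nuclei (5443). Other clusters of RPC1 and RPC2 were at 2.84 to 22.8 CPM. Epha5 was highest in these same clusters of RPC1 and RPC2, at 107 and 91.2 CPM. In the 5443 RP2 nuclei, Epha5 was at 79.6 CPM and Unc5d at 33.1 CPM.

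**Figure D3:**
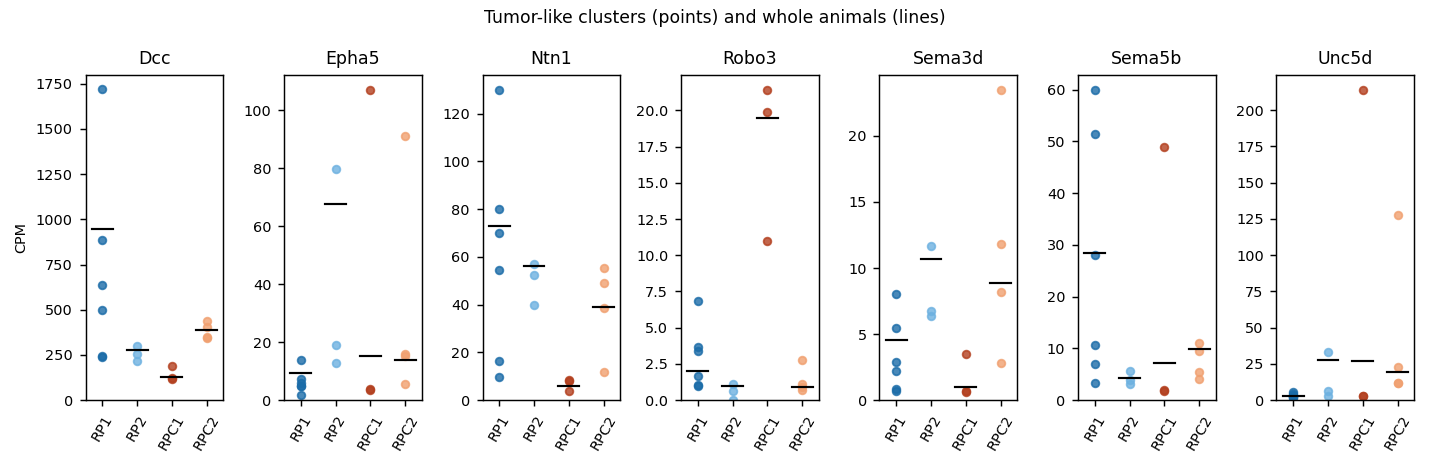
Levels of the 6 guidance genes over 4-fold apart within a genotype, and of Dcc, in tumor-like clusters with at least 200 nuclei (points, CPM, one column per animal), with lines at the level of all tumor-like nuclei of that animal, on the same scale without TMM factors. RPC1 points for Robo3 all lie at or above 11 CPM, while Unc5d and Epha5 have single high points in RPC1 and RPC2. The highest RP2 points of Unc5d and Epha5 come from the same cluster as the high RPC2 points.

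The RPC1 cluster just described was led by the neuronal genes Grik2, Lrrtm4, Erbb4, Nrxn3 and Adarb2, and many guidance genes were higher in it. It held 678 nuclei, of which 581 (85.69%) came from RPC1 and 31, 34 and 32 from RP1, RP2 and RPC2. In RPC1 it made up 6.32% of the tumor-like nuclei and 11.34% of their transcripts. The other tumor-like nuclei of RPC1 served as the reference. The nuclei were grouped by expression, though without these 70 genes, so the folds are a description with no test. Of 53 guidance genes with at least 20 transcripts in the RPC1 part of the cluster, 19 were over 4-fold higher in the cluster, where the background was 4.48% of 12790 genes. Their median fold was 1.54 against 1.0 for all genes, and 17 of the 53 were lower in the cluster. The filter counted transcripts in the cluster itself, for guidance genes and background alike. Sparse genes such as Sema3d, with 21 transcripts in the cluster and 30 outside it, thus entered through their level there. The 2 shares are therefore no test of enrichment.

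Unc5d led with 214 CPM in the cluster and 2.89 CPM outside it, which is 74.1-fold, and 90.5% of the RPC1 transcripts of this repulsive netrin receptor came from the 581 nuclei. Its relative Unc5c was at 46.7 and 0.877 CPM, a 53.2-fold difference. Epha5 was at 107 and 3.66 CPM, Sema5b at 48.9 and 1.86 CPM, Epha4 at 29.3 and 1.2 CPM and Epha3 at 34.0 and 1.88 CPM. Not all Eph receptors of the A class were higher in the cluster, since Epha6 was at 3.35 and 3.27 CPM and Epha2 at 2.01 and 2.57 CPM. Slit1 was at 264 and 32.8 CPM and Slit2 at 28.1 and 2.16 CPM, and their receptor Robo2 was at 205 and 41.0 CPM. Plxna4 was at 62.6 CPM in the cluster and at 5.35 CPM outside it, so the RPC1 level outside the cluster was lower still than that of the whole animal. Without the cluster in any animal, the Plxna4 log2 fold change between genotypes was -1.71, and the DESeq2 adjusted p was 0.0711 for Plxna4, 0.0699 for Plxnb1 and 0.051 for Plxna3. DESeq2 then called 1 guidance gene, Epha3, with a log2 fold change of -2.04 and an adjusted p of 0.0314. The genes that were abundant in all tumor-like nuclei differed less, with Ephb2 at 537 CPM in the cluster and 482 CPM outside, and Sema3e and Ntn4 lower in the cluster, at 222 against 351 CPM and at 476 against 727 CPM. In the few nuclei of this cluster from RP1, RP2 and RPC2, Slit1 was at 253, 259 and 277 CPM, from 12, 12 and 22 transcripts, close to its level in RPC1. Unc5d had only 1, 1 and 2 transcripts there.

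**Figure D4:**
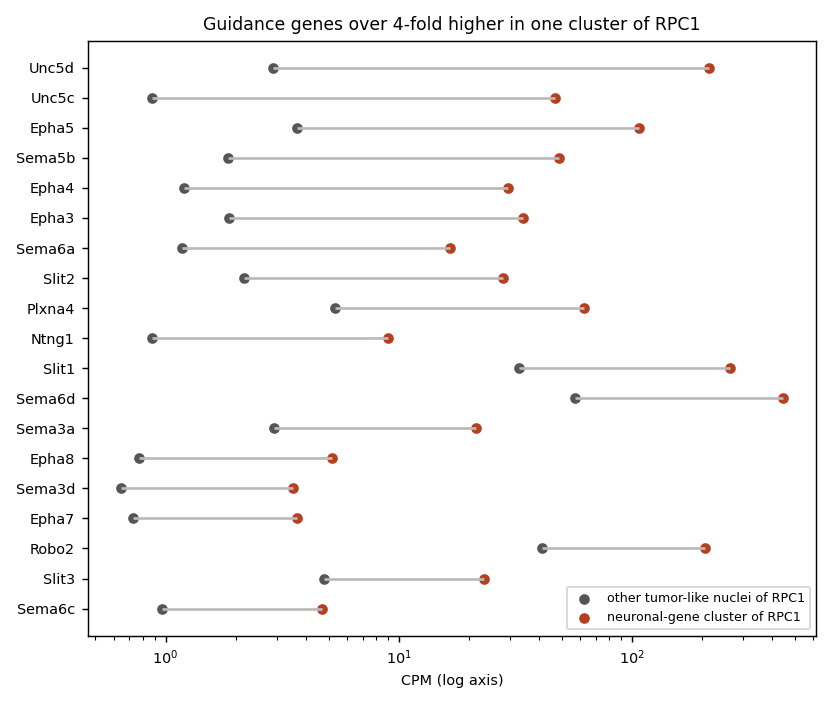
CPM (log axis) of the 19 guidance genes over 4-fold higher in the neuronal-gene cluster of RPC1 (red) than in the other tumor-like nuclei of that animal (gray). Unc5d, Unc5c and Epha5 span the widest distances, and Slit1, Sema6d and Robo2 start from the highest levels outside the cluster.

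Guidance genes were also read per nucleus, after each nucleus was thinned to 1000 transcripts. At this depth 14 genes were seen in at least 5% of the tumor-like nuclei of every animal, and nuclei with fewer transcripts (783 and 723 in RP, 144 and 404 in RPC) were left out. Ephb2 was detected in 50.8 and 55.3% of the RP nuclei and in 35.9 and 41.7% of the RPC nuclei. Plxnb1 was detected in 25.9 and 19.7% in RP and in 14.8 and 12.5% in RPC, and Plxna2 in 28.1 and 28.3% in RP and in 41.4 and 39.5% in RPC. These orders matched those of the summed levels. Robo1 and Efna5 were each found in 44.4 to 69.7% of tumor-like nuclei. Free RNA can place a transcript in any nucleus. Macrophage-like nuclei outside the deep sub-clusters described below serve as a reference for it. The neuroendocrine list summed to 803 to 1522 CPM in this reference, against 2453 to 3899 CPM in all macrophage-like nuclei. Shares in the reference were 8.13% for Ephb2, 3.39% for Plxnb1, 16.2% for Plxna2, 15.3% for Robo1 and 11.3% for Efna5. It held 443 nuclei with a median of 2621 transcripts before thinning, against medians of 2511.5 to 3378 in the tumor-like nuclei. All of these shares are below the tumor-like ones. In 270 endothelial-like nuclei chosen in the same way, Plxna2 was found in 47.8%, above its tumor-like shares. Ephb2, Plxnb1, Robo1 and Efna5 were below theirs, at 11.1, 4.44, 22.2 and 21.5%.

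Several guidance genes were far higher in other lung cells than in tumor-like nuclei. The classes were rebuilt here from marker genes, and 27 of the 70 genes were over 4 times the tumor-like level in at least one named lung class in all 4 animals. Among the tested genes this was 26 of 67, or 38.8%, beside a background of 11% of genes. Endothelial-like nuclei (508) had the highest level of 6 of them. Robo4, the endothelial Robo receptor, was at 91.9 and 42.0 CPM in RP and at 65.1 and 16.0 CPM in RPC, against 0.0759 to 0.153 CPM in tumor-like nuclei. Ephb4, the receptor of veins, was at 94.1, 64.9, 54.5 and 39.5 CPM, and its ligand Efnb2, typical of arteries, at 197, 181, 217 and 103 CPM. Sema6a was at 134 to 217 CPM, Sema7a at 69.4 to 127 CPM and Sema3g at 41.6 to 49.1 CPM, each with all 4 animals above tumor-like nuclei.

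Slit2 and Slit3 were highest in fibroblast-like and mesothelial-like nuclei. Slit2 was at 784 and 2460 CPM in the fibroblast-like nuclei of the RP animals and at 1330 and 2360 CPM in those of the RPC animals, and Slit3 at 2050, 2810, 1400 and 1020 CPM in mesothelial-like nuclei. Both were below 7 CPM in the tumor-like nuclei of every animal. Only 51 fibroblast-like and 53 mesothelial-like nuclei were found, with 2 and 8 of them in RP1, and the Slit2 values rest on 413 transcripts. Markers of other classes were present in both. In fibroblast-like nuclei the club list was at 1959, 4825, 5540 and 8132 CPM and the fibroblast list at 3429, 4361, 3799 and 3749 CPM, so the club list was higher in all animals but RP1. In mesothelial-like nuclei the fibroblast list was at 3557, 2383, 1628 and 1037 CPM and the mesothelial list at 2352, 2287, 1815 and 1096 CPM, so the fibroblast list was higher in both RP animals. The part of such mixing in the slit levels was not tested. Robo2 and Unc5c were also highest in fibroblast-like nuclei, at 576 to 1250 CPM and 341 to 849 CPM. Slit3 was at 490 to 1300 CPM in the more numerous smooth muscle or pericyte-like nuclei (385), which were mixed as well. Their own list was at 1716, 983, 1729 and 714 CPM. The fibroblast list was at 1634, 1532, 1180 and 608 CPM there, higher than their own in RP2. The neuroendocrine list was at 2824 to 4878 CPM, and the part of this mixing was not tested either. Sema3a was highest in alveolar type 1-like nuclei, at 183 to 542 CPM, and Epha2 and Epha4 in club-like nuclei, at 21.7 to 184 CPM and 26.1 to 89.6 CPM.

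**Figure D5:**
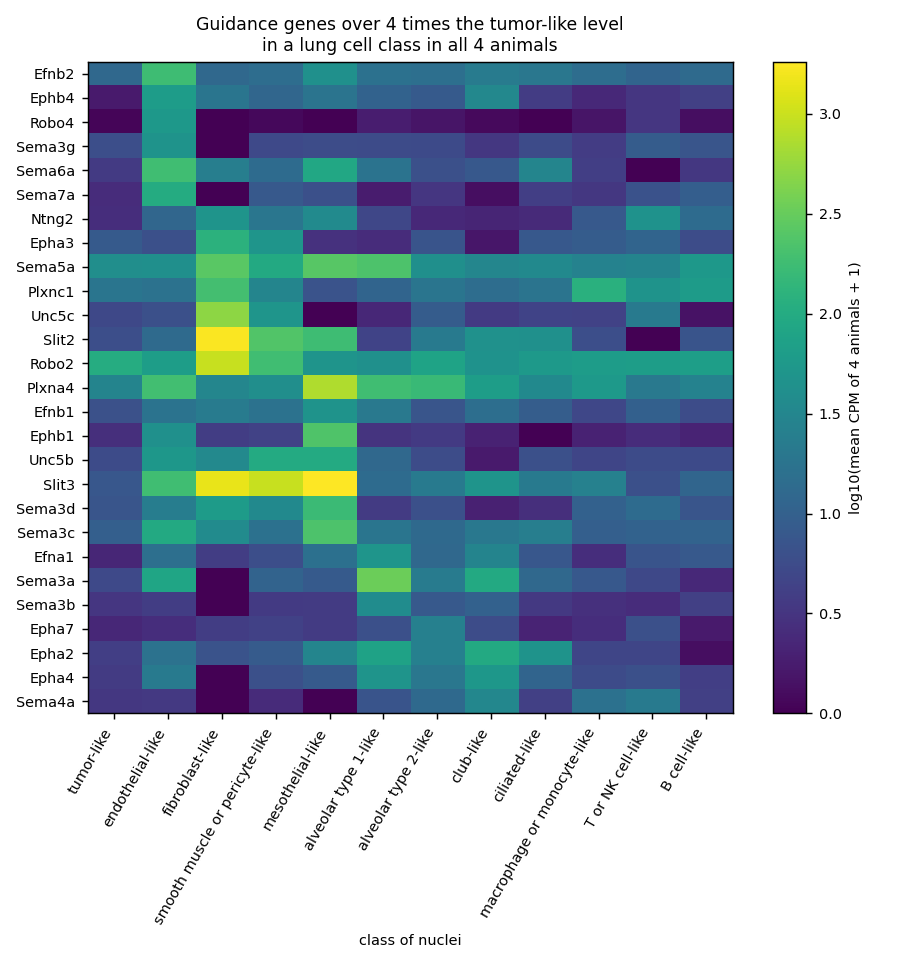
Mean level over 4 animals of the 27 guidance genes that exceeded the tumor-like level over 4-fold in a lung cell class in all 4 animals, as log10(CPM + 1), with classes of nuclei as columns. Endothelial-like nuclei stand out for the genes at the top, from Efnb2 to Sema7a, and fibroblast-like and mesothelial-like nuclei for Slit2 and Slit3.

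Some sub-clusters in these classes were deeper than 2 times the median of their animals and carried neuroendocrine markers. They made up all ciliated-like nuclei and some of the B cell, alveolar type 2, club, endothelial and macrophage-like nuclei. With them left out, 31 genes in place of 27 exceeded the tumor-like level over 4-fold in a remaining class. In the 5 classes that lost only some nuclei the number was 22 in place of 17. It was 18 in place of 13 in endothelial-like nuclei, and the levels there were higher, at 63.0 to 176 CPM for Robo4 and 307 to 397 CPM for Efnb2. Plxna4, one of the genes DESeq2 called in tumor-like nuclei, was at 950, 634, 477 and 461 CPM in alveolar type 2-like nuclei, far above its tumor-like level. Plxnc1, a plexin of myeloid cells, was at 263, 214, 250 and 287 CPM in macrophage-like nuclei. The neuroendocrine marker list still summed to 1342 to 2744 CPM in the endothelial-like nuclei that were left, against 3132, 2800, 4062 and 4858 CPM over all endothelial-like nuclei and 3997 to 5968 CPM in tumor-like nuclei. Its part in the class levels was not tested.

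Conversely, the endothelial marker list in tumor-like nuclei summed to 1016 and 1077 CPM in RP and to 2422 and 1505 CPM in RPC, nearly all from Vwf and Erg. Its other markers summed to 25.9 and 31.2 CPM in RP and 25.7 and 51.3 CPM in RPC, and Cdh5 was at 0.797 to 1.42 CPM in every animal. The fibroblast list was at 36.6 and 63.9 CPM in RP and at 32.1 and 27.9 CPM in RPC, the mesothelial list at 2.61 and 2.76 CPM in RP and at 1.37 and 1.4 CPM in RPC. The smooth muscle or pericyte list was at 22.3 and 18.3 CPM in RP and at 16.1 and 14.7 CPM in RPC. These 3 lists and the B cell list were lower in both RPC animals. The club, ciliated and alveolar type 2 lists were higher in both, with the club list at 81.2 and 84.0 CPM against 21.0 and 44.1 CPM. The alveolar type 1, T or NK cell, macrophage or monocyte and neutrophil lists overlapped between genotypes. Lists of lung cells thus differed in no single direction. The neuroendocrine list was higher in RPC, at 5600 and 5968 CPM against 4716 and 3997 CPM. No marker of these lists was at 0 over all tumor-like nuclei, and the part of other cells in the genotype differences was not tested.

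In endothelial-like nuclei, 47 guidance genes could be tested between genotypes. None passed an adjusted p of 0.05 with edgeR, where the background was 0.0425% of genes, nor with DESeq2, where it was 0.336%. At an unadjusted edgeR p under 0.05 there were 10, 9 of them lower in RPC, against a background of 11.8%, and the median log2 fold change was -0.35. Plxnd1, the endothelial receptor of Sema3e, was at 187 and 150 CPM in RP and at 66.6 and 17.2 CPM in RPC, a log2 fold change of -2.10 ± 0.51, with an adjusted p of 0.264 by edgeR and 0.0598 by DESeq2. Sema3f was at 152 and 109 CPM in RP and at 50.9 CPM in both RPC animals, a log2 fold change of -1.34 ± 0.26, and Unc5b at 79.5 and 82.2 CPM in RP and at 36.5 and 22.2 CPM in RPC, a log2 fold change of -1.51 ± 0.32. In all 3 genes the genotypes did not overlap. Plxnb1 was at 220 and 190 CPM in RP and 115 and 125 CPM in RPC. All endothelial-like nuclei entered this test, including the deep sub-clusters with neuroendocrine markers. The nuclei outside these sub-clusters gave 182194 of 457162 and 197452 of 786417 transcripts in RP1 and RP2. They gave 319947 of 752848 and 190623 of 1441890 in RPC1 and RPC2, so the share was smallest in RPC2. In these nuclei the genotypes still did not overlap for Sema3f, Plxnd1 and Unc5b. The genotypes overlapped for Ephb4, at 176 and 167 CPM in RP and 81.3 and 189 CPM in RPC, and for Plxna4. The part of tumor RNA in the tested values was not tested. The calls depended on single animals. When each animal was left out in turn, the median log2 fold change of the guidance genes was -0.56 to -0.31, against -0.02 to 0.02 over all genes. Without the deep sub-clusters 28 genes could be tested, 0 passed, and 4 had an unadjusted edgeR p under 0.05, all lower. The background was 0 of 4407 genes passing and 385 with such an unadjusted p.

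The rest of the pathway was followed with 112 further genes in 6 lists, of which 109 were tested in tumor-like nuclei. Their median log2 fold change was -0.11. None passed with edgeR, and 9 had an unadjusted edgeR p under 0.05 (8 lower and 1 higher), beside a background of 14.9% of all genes. DESeq2 called 2 of 108 with an adjusted p, beside a background of 3.61%. The shares of these pathway genes were thus below the background. The 2 genes were both lower in RPC and both among the 27 transducers of slit and netrin signals. Cap1, a regulator of actin turnover, was at 594 and 438 CPM in RP and at 42.2 and 53.7 CPM in RPC, with no overlap. Its log2 fold change was -3.43 ± 0.24, with an adjusted p of 0.154 by edgeR and 1.21e-27 by DESeq2. Genes near Cap1 were not examined, so whether its region shared this difference was not tested. Vasp, an actin polymerization factor downstream of guidance receptors, was at 22.6 and 25.6 CPM in RP and at 10.4 and 13.6 CPM in RPC, a log2 fold change of -1.01 ± 0.22, with an adjusted p of 0.271 by edgeR and 0.0268 by DESeq2. The neuropilin and plexin co-receptors had a median of 0.11, the transducers of semaphorin signals -0.11, those of ephrin signals -0.04 and the list of repulsive guidance and other cues -0.22, and in none of these 4 lists did DESeq2 call a gene.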

How the data were processed

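Frozen tumors gave nuclei that were labelled with the Parse Evercode split-pool chemistry, and the authors aligned the reads and counted transcripts per gene and nucleus with the Parse pipeline. The deposited values are raw counts of unique transcripts per gene and nucleus, one matrix per animal, on GRCm39 with Ensembl gene identifiers; whether counting used strand is not given in the sources used here. The study's filters were applied: a nucleus was kept with at least 300 counts, at most 10% mitochondrial reads and at most 12000 genes. No doublet caller was run.

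Counts were log-normalized, and nuclei were clustered (Leiden 0.10.2) on variable genes without the guidance genes, and classes were named from marker lists. Counts were summed per animal and class. RPC and RP were compared with edgeR 4.0.16 (quasi-likelihood, TMM, low-count filter), 2-sided and Benjamini-Hochberg adjusted over all genes tested, and with DESeq2 1.42.0. SEs derive from the fold change and its F statistic. CPM values beside edgeR fold changes carry TMM factors; those by class or cluster do not. The procedure was tested on simulated data. Promoter windows and positions come from the GRCm39 GENCODE annotation, matched by gene ID. Intervals and shares cover counting error only, and 2 animals per genotype limit the precision. In sums over a class, fewer cells of a subtype and less RNA per cell cannot be told apart.

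Genes were named by rule: the 20 members with the smallest edgeR p, the 3 per system with the most transcripts, those over 4-fold apart within a genotype and those over 4-fold above the tumor-like level by class; Plxna1, Plxnd1, Sema4d, Epha8, Sema3b, Unc5a and the members of the neuronal-gene cluster were added after their values were seen. Members and lists were chosen with earlier results of these data known. The median of one pathway list and one tumor marker are not reported here. 3 antisense transcripts with matching symbols were left out. Alternatives covered size factors, filters, resolution, thinning, deep nuclei, single animals and a replicate block.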

Additional observations from a re-analysis of the deposited data

How the results depend on the processing

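Under 8 alternatives each, 157 of 160 fold changes of the 20 genes with the smallest edgeR p kept their direction and side of the threshold. The exceptions were Plxnb1, Plxna4 and Plxna3, which passed with DESeq2. This count was largely fixed in advance and does not measure stability. The genotypes did not overlap for these 20 genes, so leaving out an animal could hardly turn a sign. In the main edgeR fit 0 genes of any kind passed the threshold. The median log2 fold change of the guidance genes was between -0.46 and -0.30 in 14 edgeR fits. Leaving out one animal gave 0 to 1 guidance genes called by edgeR in tumor-like nuclei (Ntn1, without RPC2), 1 to 7 called by DESeq2, 11 to 18 with an unadjusted p under 0.05, 47 to 55 without overlap (with one animal in a group), 0 to 8 called in endothelial-like nuclei, and 1 to 6 other pathway genes called by DESeq2 and 0 to 2 by edgeR (2 without RPC2), against 2 and 0 with all animals. Without RP1 and RP2 in turn, 52 and 55 of 69 guidance genes had no overlap, beside 16102 of 21960 and 16710 of 22195 genes. Without RPC1 and RPC2 the counts were 47 and 50 of 67, beside 14767 of 20280 and 15811 of 20211. These counts without overlap were thus near the background. DESeq2 called 1 guidance gene without high-count nuclei, 1 without the neuronal-gene cluster and 1 without independent filtering, against 3. Leaving out this cluster was an alternative chosen after seeing the data, as was leaving out deep sub-clusters. In endothelial-like nuclei edgeR called 7 of 70 guidance genes with no low-count filter, against 0. The background was 322 of 22402 genes, against 4 of 9401. At 500 transcripts 9 genes, not 14, were seen in 5% of nuclei. Over all genes, edgeR called 81 with no low-count filter against 0. DESeq2 called 173 to 693 genes without single animals, 321 with the block and 405 without independent filtering, against 630. The causes were not tested. DESeq2 has no low-count filter to leave out.

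Replicate numbers did not pair the samples: deviations of RP1 and RPC1 correlated at -0.041 over 20088 genes. With the replicate block edgeR called 0 guidance genes in tumor-like nuclei. DESeq2 called 3 (Ntn1, Plxna4 and Sema5a), beside 321 of 16024 genes. In endothelial-like nuclei edgeR called 2 guidance genes (Ephb1 and Plxnd1), beside 59 of 9401 genes. In tumor-like nuclei 13 guidance genes had an unadjusted edgeR p under 0.05, beside 2518 of 20088 genes.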
